A study of Mus musculus with 47 samples.

Results

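The 6 actin genes of the mouse and the noncoding gene C130080G10Rik, which lies beside Actc1, were followed in RNA of single muscle fibres. These 7 genes were taken by name out of 24421 genes in the count tables. Actc1 and C130080G10Rik were chosen by their measured difference in CPM between C2KO and WT fibres and by their correlation across fibres, so these values are described below with no test. The other 5 actin genes, Acta1, Acta2, Actb, Actg1 and Actg2, entered by name as members of the family.

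FVB/N mice aged 2 to 3 months gave the fibres, all of them from a fast-twitch hindlimb muscle, the extensor digitorum longus (EDL). The 20 C2KO fibres were from mice lacking Mybpc2, which encodes the fast skeletal isoform of a thick filament protein, and the 27 WT fibres were from mice with the gene intact. In the knockout line a Neo cassette flanked by LoxP sites stands in place of most of the gene's exons. Each library is 1 fibre, freed by collagenase. The labels name 2 C2KO and 3 WT mice and tie no fibre to a mouse.

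Fibres were summed into 5 pools, which stand as the samples of each comparison. C2KO pools followed the prefix of the fibre name, 740 (10 fibres) and 2445 (10 fibres). WT pools followed the sequencing run, WT pool 1 (10 fibres), WT pool 2 (10 fibres) and WT pool 3 (7 fibres). C2KO libraries held 7648762 to 10517887 gene counts and WT libraries 7769593 to 14606631. At the median depth of 10214951 counts, 1 count is worth 0.0979 counts per 1000000 counts (CPM). Mybpc2 stood at 2.61 to 47.6 CPM in C2KO fibres and at 6563 to 11556 CPM in WT fibres, so the genotype labels held in every fibre. The 6 markers of fast type IIb fibres summed to between 169596 and 222996 CPM in C2KO fibres and between 149351 and 227127 CPM in WT fibres, while the 4 slow fibre markers stayed at or under 36.2 CPM in each fibre.

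All fibres of prefix 740 held counts of Y-linked genes and all fibres of prefix 2445 held Xist counts, while the WT pools mixed both kinds (15 WT fibres with Y-linked counts, 11 with Xist counts and 1 with both). Run and genotype were almost the same split. Prefix 2445 shared 1 run with 6 fibres of prefix 740, another run held 3 fibres of prefix 740, and each WT pool came from 1 run. The last fibre of prefix 740 was sequenced with WT pool 3, the only run with both genotypes, and elsewhere run and genotype cannot be told apart.

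Actins are the proteins of the thin filament and of the cytoskeleton. Adult skeletal fibres build their thin filaments from skeletal α-actin, the product of Acta1, while cardiac α-actin, the product of Actc1, is the main form of the heart and is also made by developing skeletal muscle. Acta2 and Actg2 are the smooth muscle actins of vessels and of the gut, and Actb and Actg1 are the cytoplasmic actins of all cells. Transcription of several actin genes is driven by serum response factor, which binds a short element called the CArG box. No function of C130080G10Rik is stated here.

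Actc1 and C130080G10Rik lie head to head on chromosome 2. In the mm10 gene models used for counting, Actc1 spans chr2:114047289-114052811 on the minus strand with 1390 exon bases. C130080G10Rik spans chr2:114054396-114061502 on the plus strand with 1906 exon bases, and 1584 bases separate the pair in these models. In GENCODE M21 the pair lies closer, with Actc1 reaching chr2:114053548 and C130080G10Rik starting at chr2:114054335. The other actin genes lie elsewhere, all on the minus strand: Acta1 at chr8:123891758-123894775, Acta2 at chr19:34240336-34255373, Actb at chr5:142903118-142906754, Actg1 at chr11:120345690-120348484 and Actg2 at chr6:83512909-83536251. No exon base of the 7 genes is shared with another gene of those models. GENCODE M21 has longer forms of another plus-strand noncoding gene, A530058N18Rik, whose exons cover 931 of the C130080G10Rik exon bases, so counts of C130080G10Rik may include transcripts of either gene. In the models of the files A530058N18Rik stops short of the locus, and it held 2 counts over all fibres.

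The bases just before the start site are shown to set what the members share in sequence beside what they share in level. RefSeq start-site windows (GRCm38.p6) were at hand for 5 of the 7 members, and the last 100 bases before the start are printed for 4 of them, with a CArG box (CC, 6 bases of A or T, GG) in capitals. The windows are chr2:114052876-114052975 (minus strand) for Actc1, chr2:114054296-114054395 (plus strand) for C130080G10Rik, chr8:123894776-123894875 (minus strand) for Acta1 and chr11:120348496-120348595 (minus strand) for Actg1.
Actc1: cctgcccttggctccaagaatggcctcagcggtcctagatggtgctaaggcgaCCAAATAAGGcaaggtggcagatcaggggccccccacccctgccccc
C130080G10Rik: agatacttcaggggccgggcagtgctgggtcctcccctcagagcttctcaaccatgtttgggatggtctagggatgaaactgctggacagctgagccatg
Acta1: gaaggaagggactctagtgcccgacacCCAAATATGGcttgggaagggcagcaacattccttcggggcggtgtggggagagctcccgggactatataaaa
Actg1: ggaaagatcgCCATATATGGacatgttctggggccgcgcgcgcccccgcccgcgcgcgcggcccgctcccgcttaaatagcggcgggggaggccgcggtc
Distances are counted from the RefSeq starts. The CArG box began 47 bases before the start of Actc1, 73 before that of Acta1 and 90 before that of Actg1. The counted model of Actc1 starts at chr2:114052811 and that of GENCODE M21 at chr2:114053548, and neither adjoins the window. The counted model of Actg1 starts at chr11:120348484, also apart from its window. Distances from those starts differ. No match to this strict pattern was found in the 250 bases before the start of C130080G10Rik or of Acta2. Near matches, with another base among the 6 bases of A or T, do occur. The C130080G10Rik window holds ccatgtttgg, with a G. The Acta2 window, not printed here, holds ccctatatgg, with a C, and ccttgtttgg, with a G. Near matches were not counted over all windows. Over all 32851 windows, 1.47% had a CArG box in those 250 bases. The E-box CANNTG is the element of myogenic factors such as MyoD. It was absent from the Actc1 window and present in that of C130080G10Rik, 13 bases before the start. Of all windows 66.2% held it (both strands searched). The bases between the Actc1 window and the start of its counted model were not searched for either element. In these windows Actc1 shared the strict CArG pattern with Acta1 and Actg1 and not with C130080G10Rik, the member it went with in level. A match is a run of letters and not a site, and its absence says only that these letters are not in the window.

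Actin genes are near copies, so the bases that tell their reads apart matter to every level given here. The coding sequences of Actc1 and Acta1 (GENCODE M21) are both 1131 bases long, stop codon left out, and are the same at 86.3% of positions, with 155 differences. Identity to Actc1 was 84.7% for Actg2, 83.2% for Actb, 82.8% for Acta2 and 81.9% for Actg1. The longest identical run between the Actc1 transcript and another actin was 38 bases, with Actg2, and it was 29 bases with Acta1. The 60 coding bases within 1 exon where Actc1 and Acta1 differ most, coding positions 460 to 519, are printed with the 12 differing bases in capitals (chr2:114049612-114049671 and chr8:123892930-123892989, both minus strand).
Actc1: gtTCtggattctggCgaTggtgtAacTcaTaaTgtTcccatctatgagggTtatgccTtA
Acta1: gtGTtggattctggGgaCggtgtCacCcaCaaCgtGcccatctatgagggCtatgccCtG
Read pairs that mapped to several places were not counted. The fibre with the least Actc1, of WT pool 3, held 32 Actc1 counts beside 424516 Acta1 counts, which limits Acta1 reads counted as Actc1 in that library to 7.54 per 100000 Acta1 counts. C2KO fibres held 405947 Actc1 counts beside 13087679 Acta1 counts.

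Actc1 had 1976 CPM in pool 740 and 2263 CPM in pool 2445, against 288, 279 and 395 CPM in WT pools 1, 2 and 3 (CPM scaled by TMM). Both C2KO pools lay far above the WT pools, with no overlap. The means were 2120 CPM ± 203 (SD, n = 2 pools) in C2KO and 321 CPM ± 64.5 (SD, n = 3 pools) in WT, a ratio of 6.61, and the fitted log2 fold change was 2.72 (SE 0.17). C130080G10Rik had 5.37 CPM in pool 740 and 5.17 CPM in pool 2445, against 0.930, 0.505 and 0.715 CPM in the WT pools. It too did not overlap between genotypes, with means of 5.27 CPM ± 0.145 (SD, n = 2 pools) in C2KO and 0.717 CPM ± 0.213 (SD, n = 3 pools) in WT and a fitted log2 fold change of 2.88 (SE 0.29). Over all 12863 genes tested, 13.1% had both C2KO pools above all WT pools, and 0.0466% (6 genes) were called at an adjusted p under 0.05 with a fold over 1.5. Because this contrast chose both genes, nothing is read from their place in these counts.

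Fibre by fibre, Actc1 was spread over a wide range in WT. In C2KO fibres it ran from a low of 359 CPM through a median of 1992 CPM to a high of 4174 CPM, and in WT fibres from 4.12 through 72.3 to 1234 CPM. The ranges overlapped at their edges, with 17 of 20 C2KO fibres above the highest WT fibre and 18 of 27 WT fibres below the lowest C2KO fibre. C130080G10Rik ran from 0 through 3.57 to 15.4 CPM in C2KO fibres and from 0 through 0.249 to 3.77 CPM in WT fibres. It was counted in 19 of 20 C2KO fibres and in 21 of 27 WT fibres, and 9 C2KO fibres lay above the highest WT fibre.

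**Figure D1:**
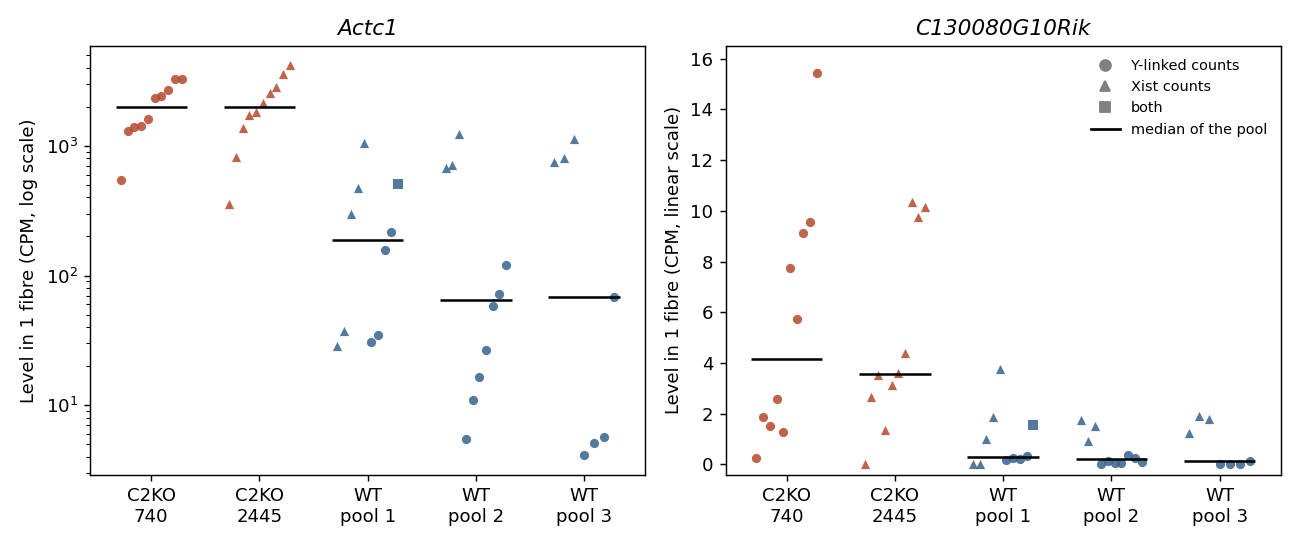
Level of Actc1 (left, CPM on a log axis) and of C130080G10Rik (right, CPM on a linear axis) in each fibre, 1 point a fibre, in the C2KO pools 740 and 2445 and the 3 WT pools, with the sideways place of a point inside a pool having no meaning and lines at the pool medians. C2KO fibres lie between 359 and 4174 CPM of Actc1 and WT fibres between 4.12 and 1234 CPM, with WT fibres that hold Xist counts mostly above those that hold Y-linked counts.

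Within WT, fibres with Xist counts and fibres with Y-linked counts were set side by side for Actc1, a split looked at after the values were known. WT fibres with Xist counts held from 28.4 through 708 to 1234 CPM (lowest, median and highest of 11) and WT fibres with Y-linked counts from 4.12 through 30.5 to 218 CPM (15 fibres). In C2KO the medians of the same kinds were 1992 CPM (prefix 2445, Xist counts) and 1984 CPM (prefix 740, Y-linked counts). The log2 fold change between genotypes was 5.06 (SE 0.74) among fibres with Y-linked counts and 1.67 (SE 0.42) among those with Xist counts. Each of these fits rests on 1 C2KO pool, and the gap between them was not tested. All 10 C2KO fibres with Y-linked counts lay above all 15 such WT fibres, while 8 of 10 C2KO fibres with Xist counts lay above the highest of 11 such WT fibres. C130080G10Rik followed the same pattern, at 5.14 and 1.85 on the log2 scale. In WT its median was 1.53 CPM in fibres with Xist counts and 0.128 CPM in those with Y-linked counts.

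In the run that held both genotypes, the single C2KO fibre had 546 CPM of Actc1 and Y-linked counts. Its WT neighbours had at most 68.7 CPM where they held Y-linked counts (4 fibres) and 757 to 1124 CPM where they held Xist counts (3 fibres). The C2KO fibre thus stood above the WT fibres of its own kind and below the others. Its C130080G10Rik level was 0.261 CPM, from 2 counts, and at most 0.128 CPM in those 4 WT fibres, a gap too small to detect at this depth. Within prefix 740, Actc1 was 1407 to 3253 CPM in the run of 6 fibres and 1293 to 3291 CPM in the run of 3 fibres.

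Across fibres, C130080G10Rik went with Actc1, the relation it was chosen for. Among 10117 genes with a mean of at least 1 CPM, ranked by Spearman rho with Actc1 averaged over 4 sets of fibres with weights by fibre number, C130080G10Rik came first with a mean rho of 0.80. Within the sets, Pearson's r on log2(CPM + 1) was 0.93 in prefix 740 (n = 10 fibres), 0.90 in prefix 2445 (n = 10), 0.75 in WT fibres with Y-linked counts (n = 15) and 0.88 in WT fibres with Xist counts (n = 11). Spearman's rho was 0.90, 0.90, 0.79 and 0.63 in the same sets. Without the 2 fibres farthest from the median of Actc1, r was 0.93, 0.84, 0.66 and 0.46, so in WT fibres with Xist counts the relation rests in part on those 2 fibres. Fibres of a set share a prefix or runs and may share a mouse, and both values of a fibre share its library, so these values are descriptions and carry no p. In WT fibres with Xist counts Actc1 also went with depth, with a rho of −0.74 to the total gene count, against −0.042 to 0.33 in the other sets. In prefix 740 the 2 fibres with the most Actc1 (3291 and 3253 CPM) also had the most C130080G10Rik (15.4 and 9.56 CPM). They were the fibres highest in fibroblast and endothelial markers, described below, and their part in these values was not tested.

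The counts of the pair kept nearly the same proportion in both genotypes. C130080G10Rik had 2.49 counts per 1000 Actc1 counts in C2KO fibres (exact 95% interval 2.33 to 2.64) and 2.35 in WT fibres (2.05 to 2.68). The intervals, which cover counting error only, overlapped. Both genes were chosen by their genotype difference and their correlation, so a like proportion follows in part from that choice and is a description. Within prefix 740 the proportion was 3.61 in the run of 3 fibres and 2.32 in the run of 6 fibres. By pool the proportion was 2.72 in 740 and 2.28 in 2445, against 3.23, 1.81 and 1.81 in WT pools 1, 2 and 3, a spread between pools wider than the gap between genotypes.

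The next genes in the order of likeness to Actc1 were Myl9, a regulatory light chain of smooth muscle and non-muscle myosin (mean rho 0.74), AW551984 (0.73), Srrm4os (0.73) and Stxbp4, which binds a syntaxin (0.71). None of these 4 was called between genotypes. Myl9 averaged 21.2 CPM in C2KO and 17.5 CPM in WT (log2 fold change 0.28, SE 0.29, edgeR adjusted p = 0.777). AW551984 averaged 33.6 CPM in C2KO and 26.3 CPM in WT (0.36, SE 0.53, edgeR adjusted p = 0.850). Srrm4os and Stxbp4 had fold changes of −0.13 and −0.25 on the log2 scale.

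Of the other members, Actb, Acta1 and Actg1 were abundant enough to be ranked. Actb came at rank 171, with a mean rho of 0.43, Acta1 at 1715 with 0.18 and Actg1 at 4165 with 0.027. Acta2 and Actg2 lay under the 1 CPM minimum and were not ranked. Their mean rho was 0.087 and 0.55, the second resting on 8 counts of Actg2 in all C2KO fibres and 24 in all WT fibres, too few to read. Actb followed Actc1 in prefix 740 (r = 0.78), prefix 2445 (0.52) and WT fibres with Y-linked counts (0.63), and ran the other way in WT fibres with Xist counts (−0.24). Acta1 had r of 0.29, 0.0047, 0.27 and −0.075 in these sets. In prefix 740 the fibres highest in Actc1 and in fibroblast and endothelial markers also had the most Actb (219 and 235 CPM). Their part in the r of Actb was not tested. Leaving the actin counts out of the library total gave an averaged r of Actc1 with C130080G10Rik of 0.858, against 0.855 with them.

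Acta1, the main actin of the adult fibre, overlapped between the genotypes. It had 59914 CPM in pool 740 and 76776 CPM in pool 2445, against 67336, 64916 and 60664 CPM in the WT pools, which lay inside the C2KO values. The log2 fold change was 0.088 (SE 0.12, edgeR adjusted p = 0.840). Its sign turned without pool 2445 (−0.096) and in fibres with Y-linked counts (−0.076). Acta1 took 6.63% of all counts and ranked 3 among genes. Actc1 made up 3.01% of the counts of Acta1 and Actc1 together in C2KO (740 at 3.19% and 2445 at 2.86%) and 0.464% in WT (0.427%, 0.428% and 0.647% by pool). In single fibres the share ran from 0.466% to 5.51% in C2KO and from 0.00754% to 1.78% in WT, so Acta1 held most of the counts of this pair in each fibre.

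The 6 actin genes together had 62106 and 79179 CPM in pools 740 and 2445, against 67812, 65390 and 61194 CPM in the WT pools. The means were 70642 CPM ± 12072 (SD, n = 2 pools) in C2KO and 64799 CPM ± 3348 (SD, n = 3 pools) in WT. The difference of 5844 CPM lay within the spread of the C2KO pools (2-sided exact permutation test, p = 0.6, where the smallest p possible is 0.1). Without pool 2445 its sign turned, to −2693 CPM.

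**Figure D2:**
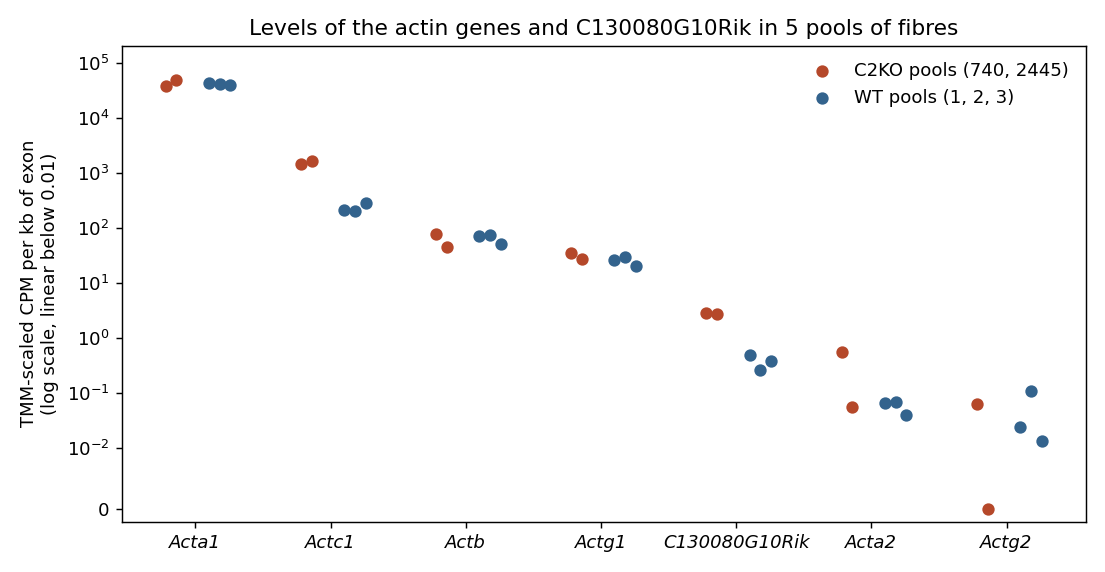
TMM-scaled CPM per kb of exon for the 7 genes in the 2 C2KO pools and the 3 WT pools, on a log axis that is linear below 0.01. Actc1 and C130080G10Rik, chosen by this difference, are the pair whose C2KO pools both sit above all WT pools. Acta1 is highest in every pool, and Actg2 is at 0 in pool 2445.

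Per kb of exon, the order of the medians over all fibres differed between genotypes in 1 place. In C2KO fibres the medians were 43976 CPM per kb for Acta1, 1433 for Actc1, 52.8 for Actb and 26.8 for Actg1. In WT fibres they were 41206 for Acta1, 52.0 for Actc1, 64.3 for Actb and 22.9 for Actg1. Actc1 stood above Actb in 20 of 20 C2KO fibres and in 13 of 27 WT fibres, where the ranges of the pair overlapped. The WT order differed by kind of fibre. In WT fibres with Xist counts the medians were 509 for Actc1 and 64.3 for Actb, the order seen in C2KO. In WT fibres with Y-linked counts they were 21.9 for Actc1 and 67.4 for Actb. Acta1 stood above Actc1 in every fibre of both genotypes, and Actb above Actg1 likewise. C130080G10Rik followed, at a median of 1.87 CPM per kb in C2KO and 0.131 in WT, and the medians of Acta2 and Actg2 were 0 in both.

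Actb and Actg1, the cytoplasmic actins, were not called. Actb had 149 CPM in pool 740 and 86.8 CPM in pool 2445, against 138, 139 and 97.5 CPM in the WT pools (log2 fold change −0.086, SE 0.26, edgeR adjusted p = 0.937). The C2KO pools lay on both sides of the WT pools, and the sign turned to 0.26 without pool 2445 and to 0.22 in fibres with Y-linked counts. Actg1 had 65.0 CPM in pool 740 and 52.4 CPM in pool 2445, against 49.3, 55.9 and 37.8 CPM in the WT pools (0.30, SE 0.18, edgeR adjusted p = 0.609). Among the 4 actin genes other than Actc1 that could be tested, 0 were called by edgeR, 1 had an unadjusted p under 0.05, and DESeq2 and limma-voom called 0. Over all 12863 tested genes 10.3% had an unadjusted p under 0.05, and edgeR called 6, DESeq2 197 and limma-voom 8. Actg2 had too few counts to be tested.

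Acta2 was close to nothing in most fibres. It had 1.41 CPM in pool 740 and 0.146 CPM in pool 2445, against 0.173, 0.181 and 0.105 CPM in the WT pools, so pool 740 stood apart and pool 2445 lay among the WT pools. The log2 fold change was 2.31 (SE 0.89, edgeR adjusted p = 0.466). Without pool 2445 Acta2 passed the threshold (3.16, edgeR adjusted p = 0.0360), but C2KO is then pool 740 alone, assumed to vary like the WT pools, and without pool 740 its sign turned, to −0.087. Of 149 Acta2 counts in C2KO fibres, 116 fell in 1 fibre of prefix 740 (12.4 CPM), against 52 counts over all WT fibres and no WT fibre above 1.05 CPM. Actg2 had 8 counts in C2KO fibres, 6 of them in the same fibre, and 24 in WT fibres.

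That fibre also held counts of vessel cell markers. The 6 mural markers taken as defining, a subset of 13 that leaves out Des and other genes that fibres also express, summed to 45.7 CPM, with Myh11 at 62 counts, Tagln at 170 and Rgs5 at 148, and all 6 had a count there. The sum of all 13, most of it Des (3136 CPM), was 3335 CPM in this fibre, rank 45 of 47, beside a median of 4265 CPM. Over all fibres the 6 markers summed to 0 to 45.7 CPM in C2KO (median 0.430) and to 0.227 to 1.75 CPM in WT (median 0.616). All 12 endothelial markers were counted in that fibre, at 145 CPM in sum, the highest of 47 fibres, beside a median of 0.908 CPM. By genotype the endothelial sum was 0 to 145 CPM in C2KO and 0 to 5.46 CPM in WT, where Vwf was at 0. More attached cells and more RNA per attached cell cannot be told apart. Without the 2 C2KO fibres highest in fibroblast and endothelial markers, both of prefix 740, the C2KO fibres held 27 Acta2 counts and the log2 fold change was 0.051. This alternative was chosen after seeing the data and leaves out the fibre with most of the Acta2 counts. The lower value thus follows from the choice, and the cause was not tested.

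The other of these 2 fibres held the most Actg1 (207 CPM) and the most Actb (235 CPM) of all fibres. Its 12 fibroblast markers summed to 5708 CPM with 11 counted, the highest of 47 fibres. By genotype the fibroblast sum was 14.4 to 5708 CPM in C2KO and 12.9 to 414 CPM in WT, with Tcf21 at 0 in both. Without both fibres, Actc1 and C130080G10Rik both had a log2 fold change of 2.64, Actg1 one of 0.097 and Actb one of −0.17. In the pools, 11 of 11 tested fibroblast markers were above 0 (median log2 fold change 3.76), as were 9 of 9 endothelial markers (median 3.21) and 3 of 8 mural markers (median −0.10). Over all genes 49.9% were above 0. edgeR called 0 of each list, against 0.0466% of all genes, with 7 fibroblast, 6 endothelial and 1 mural marker at an unadjusted p under 0.05, against 10.3% of all genes. The mural marker was Lmod1, which was lower in C2KO. DESeq2 called 0 fibroblast, 3 endothelial and 1 mural marker, and limma-voom 0. Over all 12863 genes DESeq2 called 197 and limma-voom 8. Pool 740 stood highest, as for the fibroblast marker Gsn with 376 CPM in 740 and 26.4 CPM in 2445, against 26.9, 9.60 and 1.06 CPM in the WT pools. The medians over fibres were 36.1 CPM in C2KO and 34.6 CPM in WT for the fibroblast sum, and 1.03 CPM in C2KO and 0.878 CPM in WT for the endothelial sum. Without the 2 fibres the median log2 fold change between pools was 1.59 for fibroblast and 1.38 for endothelial markers. The same markers chose the fibres left out, and only C2KO fibres were left out, so lower medians follow from the choice.

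The genes around Actc1 were looked at by position alone. Within 1 Mb of its middle lay 13 other genes, of which 4 had enough counts to be tested, and edgeR called 0 of them (1 with an unadjusted p under 0.05, and 0 called by DESeq2 and by limma-voom). With 0.0466% called by edgeR over all genes, 0 of 4 is the background level, and 10.3% of all genes had an unadjusted p under 0.05. Arhgap11a, the nearest tested gene before Actc1, averaged 1.08 CPM in C2KO and 1.12 CPM in WT (log2 fold change −0.062, SE 0.31), and the next one before it, the ryanodine receptor gene Ryr3 at 1.22 Mb, 0.204 CPM in C2KO and 0.238 CPM in WT (−0.25, SE 0.88). Aqr, a splicing helicase and the nearest tested gene beyond C130080G10Rik, averaged 15.8 CPM in C2KO and 15.9 CPM in WT (−0.0026, SE 0.13). Zfp770, a zinc finger gene, averaged 5.70 CPM in C2KO and 8.35 CPM in WT (−0.55, SE 0.22, edgeR adjusted p = 0.470), the lowest of the 4.

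**Figure D3:**
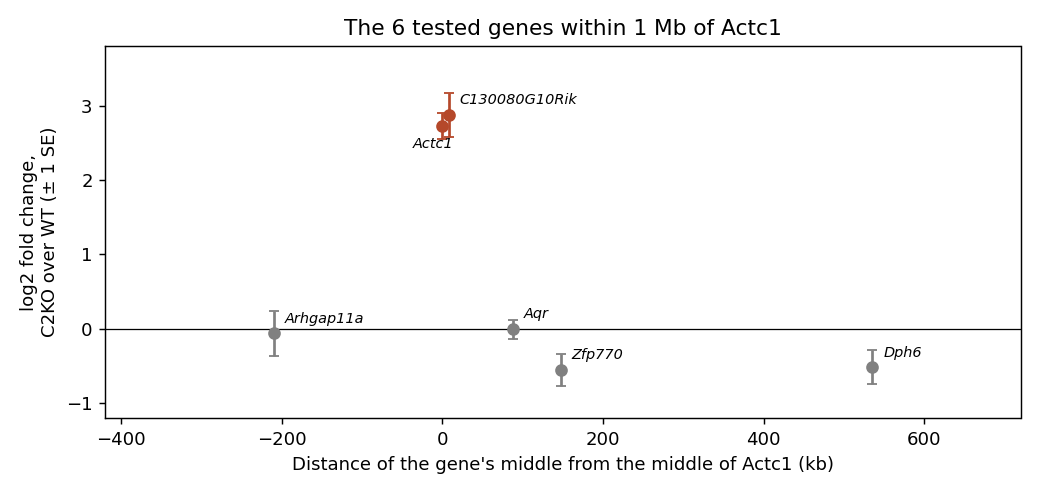
Log2 fold change of C2KO over WT (y axis, bars ± 1 SE of the fit) against distance from the middle of Actc1 in kb (x axis) for the 6 tested genes within 1 Mb. Actc1 is at 2.72 and C130080G10Rik at 2.88, both chosen by this contrast. The other 4, chosen by position, lie between −0.55 and −0.0026.

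Thin filament genes that work with actin were counted next. Of 24 listed, 21 were tested, and 0 were called by edgeR (1 with an unadjusted p under 0.05, DESeq2 1, limma-voom 0). Over all genes edgeR called 0.0466% and 10.3% had an unadjusted p under 0.05, so 0 edgeR calls in a list of this or a smaller size is the background level. Over all 12863 genes DESeq2 called 197 and limma-voom 8. From this list DESeq2 called the leiomodin Lmod1, named outside the rule. It averaged 3.89 CPM in C2KO and 9.23 CPM in WT (−1.25, SE 0.17, edgeR adjusted p = 0.206). Without the 2 fibres highest in fibroblast and endothelial markers, 6 of the 21 had an unadjusted p under 0.05. With all fibres the list's median log2 fold change was 0.032, against −0.00038 over all genes. Tnnt3, the fast troponin T, averaged 22593 CPM in C2KO and 20155 CPM in WT (0.16, SE 0.094), and Tpm1, a tropomyosin, 19889 CPM in C2KO and 17002 CPM in WT (0.23, SE 0.098).

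Other genes of embryonic muscle and the heart form the next list. Of 20 listed, 11 were tested, and 0 were called by edgeR, DESeq2 or limma-voom (4 with an unadjusted p under 0.05, against 10.3% of all genes). Their median was −0.062, with 5 of 11 above 0. Xirp1, an actin-binding Xin repeat protein, averaged 1709 CPM in C2KO and 1496 CPM in WT (0.19, SE 0.21). Ankrd1, a stress-responsive ankyrin repeat protein, averaged 1105 CPM in C2KO and 609 CPM in WT (0.86, SE 0.34, edgeR adjusted p = 0.470). The embryonic myosin Myh3 reached at most 0.515 CPM in a C2KO fibre and 3.45 CPM in a WT fibre, and the cardiac troponin I gene Tnni3 had no count in any fibre.

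Regulators of CArG box genes were counted in the same way. Over all 12863 genes, 10.3% had an unadjusted p under 0.05, and edgeR called 6, DESeq2 197 and limma-voom 8. Of 20 listed serum response factor and cofactor genes, 18 were in the files and 13 were tested, with 0 called by edgeR (2 with an unadjusted p under 0.05, DESeq2 1, limma-voom 0) and a median of −0.14. The gene called by DESeq2 was Myod1, the gene of MyoD, named outside the rule for this list. It averaged 130 CPM in C2KO and 56.7 CPM in WT (1.20, SE 0.32, edgeR adjusted p = 0.412). Mef2c, a myocyte enhancer factor, averaged 525.9 CPM in C2KO and 502.7 CPM in WT (0.065, SE 0.13), and Abra, an activator of this pathway, 151 CPM in C2KO and 219 CPM in WT (−0.53, SE 0.31). Srf itself, named outside the rule, averaged 57.1 CPM in C2KO and 73.6 CPM in WT (−0.36, SE 0.093, edgeR adjusted p = 0.409). Genes that handle actin in all cells had a median of 0.25, with 16 of 19 above 0, against 49.9% of all genes. Of these 19, edgeR called 0, DESeq2 2 and limma-voom 0, and 6 had an unadjusted p under 0.05, against 10.3% of all genes. Some of the 19 were high in pool 740 beside the fibroblast and endothelial markers, whose part in this list was not tested. Gsn is on the fibroblast list as well, and Arpc1b had 4.19 CPM in 740 and 0.502 CPM in 2445, against 0.670, 0.287 and 0.663 CPM in the WT pools. Without the 2 fibres highest in those markers the list's median was 0.14, with 14 of 19 above 0. Capza2, a capping protein subunit, averaged 691 CPM in C2KO and 643 CPM in WT (0.10, SE 0.082), and Pfn2, a profilin, 225 CPM in C2KO and 168 CPM in WT (0.42, SE 0.094, edgeR adjusted p = 0.395).

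**Figure D4:**
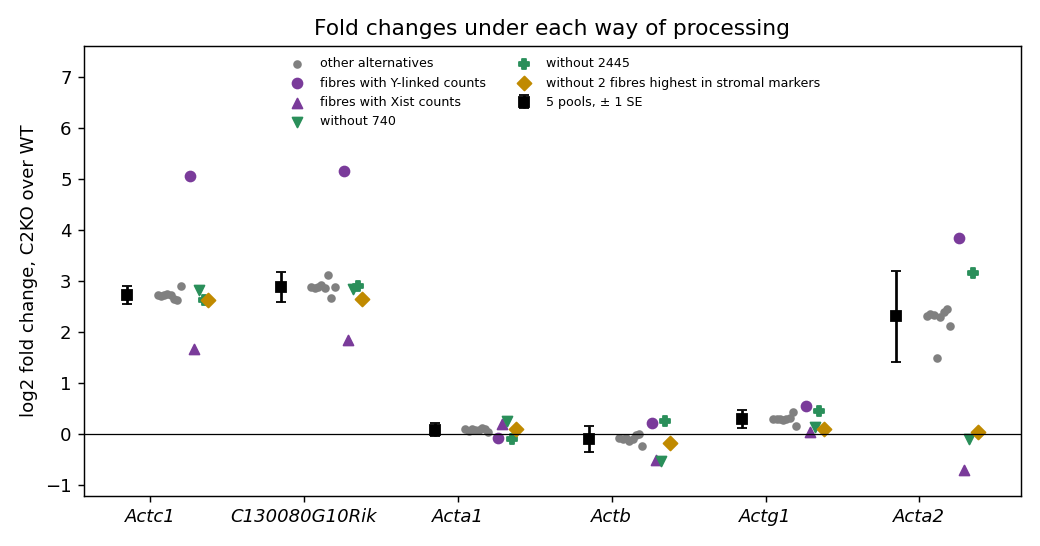
Log2 fold change of C2KO over WT (y axis) for the 6 members that could be tested, from the 5 pools (black squares, bars ± 1 SE) and under each alternative. Actc1 runs from 1.67 to 5.06 and C130080G10Rik from 1.85 to 5.14, both chosen by this contrast, so their kept sign is no test. Acta1 runs from −0.096 to 0.26, Actb from −0.52 to 0.26, Actg1 from 0.050 to 0.56, and Acta2 from −0.69 to 3.84.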

How the data were processed

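Single fibre RNA-seq libraries of 20 C2KO and 27 WT fibres were used. The authors deposited raw counts per gene for each fibre, whole-number counts of read pairs over exons of 24421 genes (mm10) from featureCounts 1.5.2 counted with strand option 2 and without multi-mapping reads. HISAT2 2.0.5, FastQC 0.11.2 and CASAVA 1.4 are in the submitters' processing notes as well. The sources used here do not give whether the kit kept strand. Unique mapping can lower the counts of actin genes where they are identical.

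Counts were summed per pool and tested with edgeR 4.0.16 in R 4.3.3 (TMM, filterByExpr, quasi-likelihood test, Benjamini-Hochberg adjustment over 12863 genes). Calls needed an adjusted p under 0.05 together with a fold over 1.5. DESeq2 1.42.0, limma-voom (limma 3.58.1), other scalings, no low-count filter, each pool left out and fibres of 1 kind alone were alternatives. A fibre was taken to hold Y-linked or Xist counts above 10. Per-fibre CPM is relative to all gene counts. The test was checked on simulated data. Each WT pool held fibres with Y-linked and fibres with Xist counts, hence of more than 1 mouse, so with 3 WT mice the WT pools share mice. The spread behind SDs and p-values is that of pools, which can be smaller than the spread of mice and may be technical. All 1081 pairs of fibres differed by more than counting error (lowest chi-square per degree of freedom 8.40). Intervals on ratios of counts are exact at a confidence level of 0.95.

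The members and gene lists were chosen with earlier results of these data known. Named were the members, Mybpc2, up to 3 called or else the 2 most abundant tested genes of a list, the nearest tested genes around Actc1 and the 5 genes most like Actc1. Of the marker lists, mural, fibroblast and endothelial lists are given beside the result they touch. The satellite cell, immune and Y-linked lists, with 6, 2 and 4 genes tested, had 0 called genes by edgeR (1, 1 and 0 with an unadjusted p under 0.05, DESeq2 1, 0 and 0, limma-voom 0). Over all 12863 genes, 10.3% had an unadjusted p under 0.05, and edgeR called 6, DESeq2 197 and limma-voom 8.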

Additional observations from a re-analysis of the deposited data

Results flagged for a closer look

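Within the 5 pools, the levels of each member were searched for a single fibre far from the others of its pool, over 32 sets of fibres with more than 3 counts in a fibre. Chance alone flags about 1 set in 20, and 10 were found. Of these, 5 were sets of Acta2 or Actg2 with fibres at 0, for which that rate does not hold. In prefix 740, Acta2 (12.4 CPM, next 1.04) and Actg2 (0.643 CPM, next 0.114) were high in the same fibre, the one with mural and endothelial markers, and Actg1 (207 CPM, next 70.5) was high in the fibre with most fibroblast markers. In WT pool 1, Actc1 (1055 CPM, next 511) and C130080G10Rik (3.77 CPM, next 1.85) were high in the same fibre, and Acta2 (1.05 CPM) and Actg1 (120 CPM, next 68.5) in other fibres. In WT pool 2, Acta1 (88253 CPM, next 68299) and Acta2 (0.935 CPM, next 0.319) were high in the same fibre. In WT pool 3, Acta2 was counted in 1 fibre alone (0.685 CPM, from 6 counts).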

How the results depend on the processing

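The log2 fold changes of Actc1 and C130080G10Rik kept their sign under all 13 alternatives, at 1.67 to 5.06 and 1.85 to 5.14, with the extremes from fibres with Xist counts alone and fibres with Y-linked counts alone. Both genes were chosen by this contrast in these same fibres, so their kept sign gives no support. The count of other actin genes called was 0 under 12 alternatives and 0 to 1 with each pool left out, where Acta2 passed the threshold without prefix 2445, with 1 C2KO pool assumed to vary like the WT pools (3.16, adjusted p = 0.0360, against 0.0360 to 0.988 over its alternatives). Without prefix 740, Acta2 was at −0.087, and at −0.69 in fibres with Xist counts. The genes near Actc1 gave 0 calls under all alternatives. Acta1 turned to −0.076 in fibres with Y-linked counts and to −0.096 without prefix 2445, and Actb to 0.22 and 0.26. The summed actin difference was −2693 to 14380 CPM with each pool left out, negative without prefix 2445. The cause of these changes was not tested. Over all genes edgeR called 6, against 197 by DESeq2, 8 by limma-voom, 11 without the low-count filter, 286 in fibres with Y-linked counts, 4 in fibres with Xist counts, 9 without the 2 fibres highest in stromal markers (an alternative chosen after seeing the data) and 1 to 358 with each pool left out, the highest without prefix 2445. No paired analysis was possible because fibres were summed into pools that carry no shared number, and the numbers inside fibre names, some of which recur in both genotypes, tie no fibre to a mouse. Depth limits Acta2, Actg2 and C130080G10Rik in WT, where 3 counts equal 0.294 CPM at the median depth.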
